A study of Homo sapiens with 6 samples.

Results

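The G1 cyclins, their kinases and the retinoblastoma family were examined in human colon carcinoma cells given the microRNA miR-224. The members are the 10 genes CCND1, CCND2, CCND3, CCNE1, CCNE2, CDK4, CDK6, RB1, RBL1 and RBL2, taken by symbol, with every probe set annotated to only that symbol. These are 28 probe sets of 54613 on the arrays, for 10 of 19775 genes, and 0 of the 28 are shared with another gene. The cells were HCT116, an established colon carcinoma line. The miR-224 cells received 50 nM of miR-224 precursor molecules and the control cells 50 nM of control oligos, and both were harvested after 24 h. Total RNA of 3 miR-224 and 3 control cultures was read on Affymetrix arrays, as 3 pairs from 3 independent experiments that share a number. The values are log2 expression levels after RMA, in which a difference of 1 is a doubling, and differences are miR-224 minus control throughout. The number of arrays limits the precision, and the level of mature miR-224 was not analysed here.

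D-type cyclins bind the kinases CDK4 and CDK6 early in G1 and start the phosphorylation of the retinoblastoma protein RB1 and its relatives p107 (RBL1) and p130 (RBL2). Phosphorylation releases E2F transcription factors, which switch on genes for DNA synthesis, among them those of the E-type cyclins, and cyclin E with CDK2 then completes the step into S phase. In colon epithelium CCND1 is induced by growth factor and WNT signalling, and a microRNA such as miR-224 can lower a transcript when its seed, bases 2 to 8, pairs with a site in it.

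A microRNA finds its targets mainly through its seed. Both mature arms of MIR224 are shown here, since the labels do not say which arm the precursor was made to give. They come from RefSeq (GRCh38.p14, minus strand), at chrX:151958628-151958652 for the 5p arm and chrX:151958584-151958606 for the 3p arm, with the seed in capitals.
hsa-miR-224-5p: uCAAGUCAcuagugguuccguuuag
hsa-miR-224-3p: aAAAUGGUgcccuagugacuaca
The seeds differ, CAAGUCA in the 5p arm and AAAUGGU in the 3p arm. Matches to them in the members' transcripts were not analysed here.

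The promoters of CCND1, CCND2 and CCNE2 were not analysed here. Those of the other 7 of the 10 members were taken from the RefSeq table, as 11 windows from 250 bases before to 50 after a start site. They were searched on both strands for the E2F motif (TTTCCCGC, TTTCGCGC, TTTGCCGC or TTTGGCGC) and for the E-box CACGTG, the motif bound by MYC. The E2F motif was found in 3.31% and the E-box in 7.26% of 35116 promoters of this length. The members with a match are printed to show which of those searched carry either motif. CDK4 (chr12:57752261-57752560, minus strand) held 3 E-boxes and CDK6 (chr7:92836524-92836823, minus strand) held 1, while RBL1 (chr20:37095948-37096247, minus strand) held 2 E2F motifs, with no overlap between motifs. The matches are in capitals.
CDK4 promoter: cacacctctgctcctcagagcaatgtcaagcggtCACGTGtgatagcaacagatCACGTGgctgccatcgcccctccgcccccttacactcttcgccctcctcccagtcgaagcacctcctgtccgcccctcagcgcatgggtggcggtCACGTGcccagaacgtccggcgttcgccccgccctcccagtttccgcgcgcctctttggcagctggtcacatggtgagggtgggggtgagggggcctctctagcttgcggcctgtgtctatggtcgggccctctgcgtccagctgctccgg
CDK6 promoter: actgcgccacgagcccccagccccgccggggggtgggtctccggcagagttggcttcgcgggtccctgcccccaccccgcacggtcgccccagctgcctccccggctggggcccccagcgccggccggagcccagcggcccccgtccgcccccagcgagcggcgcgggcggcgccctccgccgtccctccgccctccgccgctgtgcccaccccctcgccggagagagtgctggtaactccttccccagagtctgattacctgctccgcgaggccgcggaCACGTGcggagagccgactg
RBL1 promoter: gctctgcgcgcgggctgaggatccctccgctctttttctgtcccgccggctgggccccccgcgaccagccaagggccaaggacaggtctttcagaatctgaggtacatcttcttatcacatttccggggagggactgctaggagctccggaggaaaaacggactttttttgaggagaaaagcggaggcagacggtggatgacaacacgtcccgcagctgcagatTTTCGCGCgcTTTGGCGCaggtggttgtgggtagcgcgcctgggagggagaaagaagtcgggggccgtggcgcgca
These windows show letters of the motif and not binding.

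Experiment 1 stood apart from the other two in both groups. The control probe set for the 5′ end of actin read 4.14 in the miR-224 and 4.42 in the control array of experiment 1, against 12.3 to 12.5 on the other 4 arrays, whereas the 3′ one read 12.4 to 12.5 on all 6. Of the markers for colon epithelium, 7 of 10 were at or above the median of all genes (4.75). EPCAM read 10.1 to 10.8 and KRT18 12.1 to 12.5, while CDH17, VIL1 and LGALS4 were under the median. Of 10 measured markers of other cells, COL1A1 alone reached it, and their summed level ranged from 35.7 to 37.3 in the miR-224 and from 36.5 to 37.2 in the control arrays. PTPRC, CDH5 and ALB, markers of leukocytes, endothelium and hepatocytes, read under 3. Further markers of these cells read higher, though under the median of all genes. CD3E read 3.15 to 3.72, PECAM1 4.26 to 4.66, VWF 3.36 to 3.67 and APOA1 3.80 to 4.25.

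CCND1 was the member with the lowest differences, and it was lower in the miR-224 cells of experiments 2 and 3 on both of its probe sets but not in experiment 1. It encodes cyclin D1, the main partner of CDK4 and CDK6 in many epithelia. Probe set 208712_at read 9.86, 8.64 and 9.03 in the miR-224 arrays of experiments 1, 2 and 3, against 9.79, 9.43 and 9.99 in the control arrays. The miR-224 arrays of experiments 2 and 3 were the lowest of the 6, while the miR-224 array of experiment 1 lay among the controls, so that the groups overlap. Probe set 208711_s_at read 6.44, 7.48 and 8.004 in the miR-224 arrays, against 6.25, 8.55 and 9.13 in the control arrays. Here both arrays of experiment 1 were the lowest, and in experiments 2 and 3 the miR-224 array was below its control.

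In experiments 2 and 3 the CCND1 signal of the miR-224 cells was 0.578 and 0.514 times that of the controls on 208712_at, and 0.478 and 0.458 times on 208711_s_at. The log2 differences in experiments 1, 2 and 3 were 0.07, -0.79 and -0.96 on 208712_at and 0.19, -1.06 and -1.13 on 208711_s_at. Over all 3 experiments, fitted with limma and experiment as a block, the mean differences were -0.56 ± 0.19 (SE, 95% interval -0.99 to -0.13) and -0.67 ± 0.23 (-1.20 to -0.13). Neither passed over all probe sets (adjusted p = 0.40 and 0.42, unadjusted p = 0.016 and 0.021), nor did any other of the 54613 probe sets. By size, 208711_s_at was the 210th and 208712_at the 392nd lowest difference of all probe sets. In a culture, a lower level in every cell and a loss from some of the cells cannot be told apart.

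With experiments 2 and 3 only, 208711_s_at fell by 1.10 ± 0.13 (SE, limma adjusted p = 0.023), and 208712_at stood at -0.87 ± 0.13 and just missed the threshold (adjusted p = 0.0504). A fit added after the data were seen took each gene by its brightest probe set, again without experiment 1, where CCND1 was not lower. There CCND1 was the member called (208712_at, limma adjusted p = 0.019), 1 of 10 genes. Of all 19775 genes, 0.743% were called lower and 0.137% higher. Over probe sets 0.242% fell and 0.00916% rose, and 1 of 28 member probe sets was called. These fits have 1 residual degree of freedom, so their standard errors lean on variances pooled over the array. Leaving out experiment 2 or 3 in place of experiment 1 gave differences of -0.44 and -0.36 on 208712_at, and of -0.47 and -0.44 on 208711_s_at.

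Whether the CCND1 difference itself varied between experiments was tested in a fit added after the data were seen. Its standard errors also lean on variances pooled over the array. The effect in experiments 2 and 3 minus that in experiment 1 was -0.95 ± 0.23 (SE) on 208712_at and -1.29 ± 0.23 on 208711_s_at. Neither passed over all probe sets (limma adjusted p = 0.60 and 0.47, unadjusted p = 0.00295 and 0.00035, and adjusted p = 0.12 and 0.088 with robust variances and an intensity trend). The difference in experiment 1 was 0.19 on 208711_s_at, whose level there was 1.94 under that of experiments 2 and 3. It was 0.07 on 208712_at, whose level there was 0.55 above that of experiments 2 and 3. The part of the low 5′ signal of experiment 1 in this result was not tested.

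**Figure D1:**
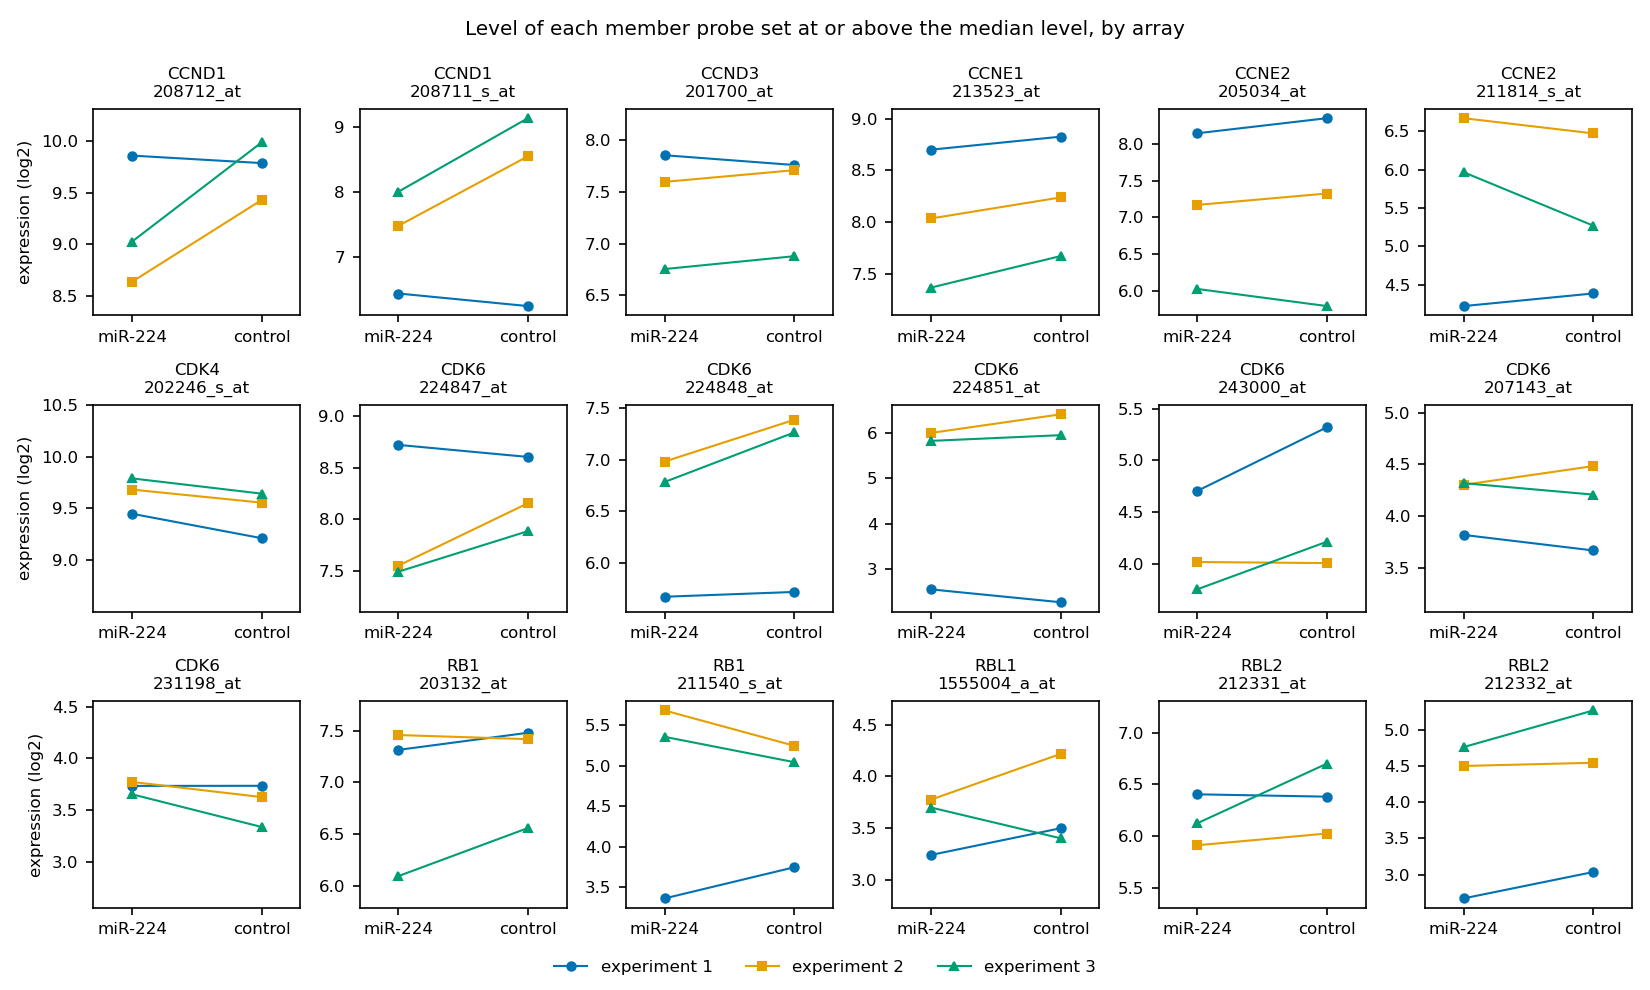
Expression level (log2, vertical axis, a separate range for each panel) of the 18 member probe sets at or above the median of all probe sets, in the miR-224 (left) and control (right) array of each experiment. Lines join the arrays of one experiment. Both CCND1 panels slope up to the control in experiments 2 and 3 and are nearly level in experiment 1, where 208712_at reads 9.86 in miR-224 and 9.79 in control.

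CCND3 and CCND2, the other D-type cyclins, gave differences closer to 0 or above it. CCND3 (201700_at) read 7.85, 7.60 and 6.75 in the miR-224 arrays of experiments 1, 2 and 3, against 7.76, 7.71 and 6.88 in the control arrays. Both arrays of experiment 3 were the lowest, and within each experiment the groups lay close together. The mean difference was -0.05 ± 0.11 (SE), with a 95% interval of -0.29 to 0.20. That interval overlaps those of the CCND1 probe sets over the same experiments (-0.99 to -0.13 and -1.20 to -0.13). A contrast between the genes was not tested. A second CCND3 probe set, 1562028_at, was under the median level of all probe sets (3.48) on every array and differed by -0.11.

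All 4 CCND2 probe sets were dim, between 2.19 and 3.20 on every array, a range in which RMA values separate a transcript poorly from background. Their differences ran from 0.05 to 0.25. Of the 4, 3 were higher in the miR-224 array of every experiment, and of these 200952_s_at had the smallest p of the limma fit (difference 0.24 ± 0.10 SE, adjusted p = 0.49). Being higher in all 3 experiments held for 16.5% of all probe sets.

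CDK6, which encodes a catalytic partner of the D-type cyclins, had 7 probe sets that did not read alike. The brightest, 224847_at, read 8.72, 7.55 and 7.49 in the miR-224 arrays of experiments 1, 2 and 3, against 8.60, 8.16 and 7.89 in the control arrays. As on 208712_at of CCND1, but not on 208711_s_at, the miR-224 arrays of experiments 2 and 3 were the lowest of the 6. Probe set 224848_at read 5.67, 6.98 and 6.78 in the miR-224 arrays, against 5.72, 7.39 and 7.26 in the control arrays. It was lower in the miR-224 array of each experiment, by 0.05 in experiment 1.

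The mean differences of these 2 CDK6 probe sets were -0.29 ± 0.14 (SE) and -0.31 ± 0.12, and neither passed (limma adjusted p = 0.56 and 0.46). With experiments 2 and 3 only they stood at -0.50 ± 0.13 and -0.44 ± 0.13 (adjusted p = 0.22 and 0.26). Another, 224851_at, read 2.56 and 2.27 in the miR-224 and the control array of experiment 1 and 5.83 to 6.41 on the others, and its differences were 0.28, -0.41 and -0.13 in experiments 1, 2 and 3. Its level in experiment 1 was 3.63 below that of experiments 2 and 3, the largest such shift among the members.

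The remaining CDK6 probe sets ran otherwise. 243000_at was lower in experiments 1 and 3, at -0.62 and -0.46, and stood at 0.01 in experiment 2, with a mean of -0.35 ± 0.14 (SE, limma adjusted p = 0.45). The mean differences of 207143_at, 231198_at and the dim 235287_at were 0.03, 0.15 and 0.14. The mean over all 7 was -0.10 ± 0.09 (adjusted p = 0.71), so the CDK6 difference depends on the probe set taken. The effect in experiments 2 and 3 minus that in experiment 1 was -0.61 for 224847_at, -0.39 for 224848_at and -0.55 for 224851_at (adjusted p = 0.71, 0.82 and 0.76).

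CDK4, the other kinase partner, was higher in the miR-224 array of every experiment by a small amount. Its single probe set read 9.45, 9.68 and 9.79 in the miR-224 arrays of experiments 1, 2 and 3, against 9.21, 9.56 and 9.64 in the control arrays. The differences were 0.24, 0.13 and 0.15, within a range where the groups overlap. The mean was 0.17 ± 0.10 (SE, 95% interval -0.06 to 0.40) and did not pass (limma adjusted p = 0.63). Leaving out 1 experiment at a time moved it between 0.14 and 0.19.

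CCNE1, which encodes cyclin E1, the activator of CDK2, was lower in the miR-224 array of each experiment on its bright probe set. It read 8.70, 8.03 and 7.37 in the miR-224 arrays of experiments 1, 2 and 3, against 8.83, 8.24 and 7.67 in the control arrays. The level varied more between experiments than between groups. The differences of -0.13, -0.20 and -0.30 gave a mean of -0.21 ± 0.10 (SE, limma adjusted p = 0.55), and a dim second probe set differed by 0.02. Being lower in all 3 experiments held for 14.8% of all probe sets.

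CCNE2, which encodes the related cyclin E2, had 2 bright probe sets whose mean differences were of opposite sign. On 205034_at it read 8.14, 7.17 and 6.02 in the miR-224 arrays of experiments 1, 2 and 3, against 8.35, 7.32 and 5.79 in the control arrays, a mean difference of -0.04 ± 0.12 (SE). On 211814_s_at it read 4.22, 6.67 and 5.96 in the miR-224 arrays, against 4.39, 6.47 and 5.27 in the control arrays, a mean of 0.24 ± 0.16. Neither passed (limma adjusted p = 0.94 and 0.67). In experiment 1 both were lower, at -0.21 and -0.16, and in experiment 2 they differed in sign, at -0.16 and 0.20. Experiment 3 gave the highest difference on both, at 0.23 and 0.69. The level of experiment 1 was 1.67 above that of experiments 2 and 3 on the first and 1.79 below it on the second.

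**Figure D2:**
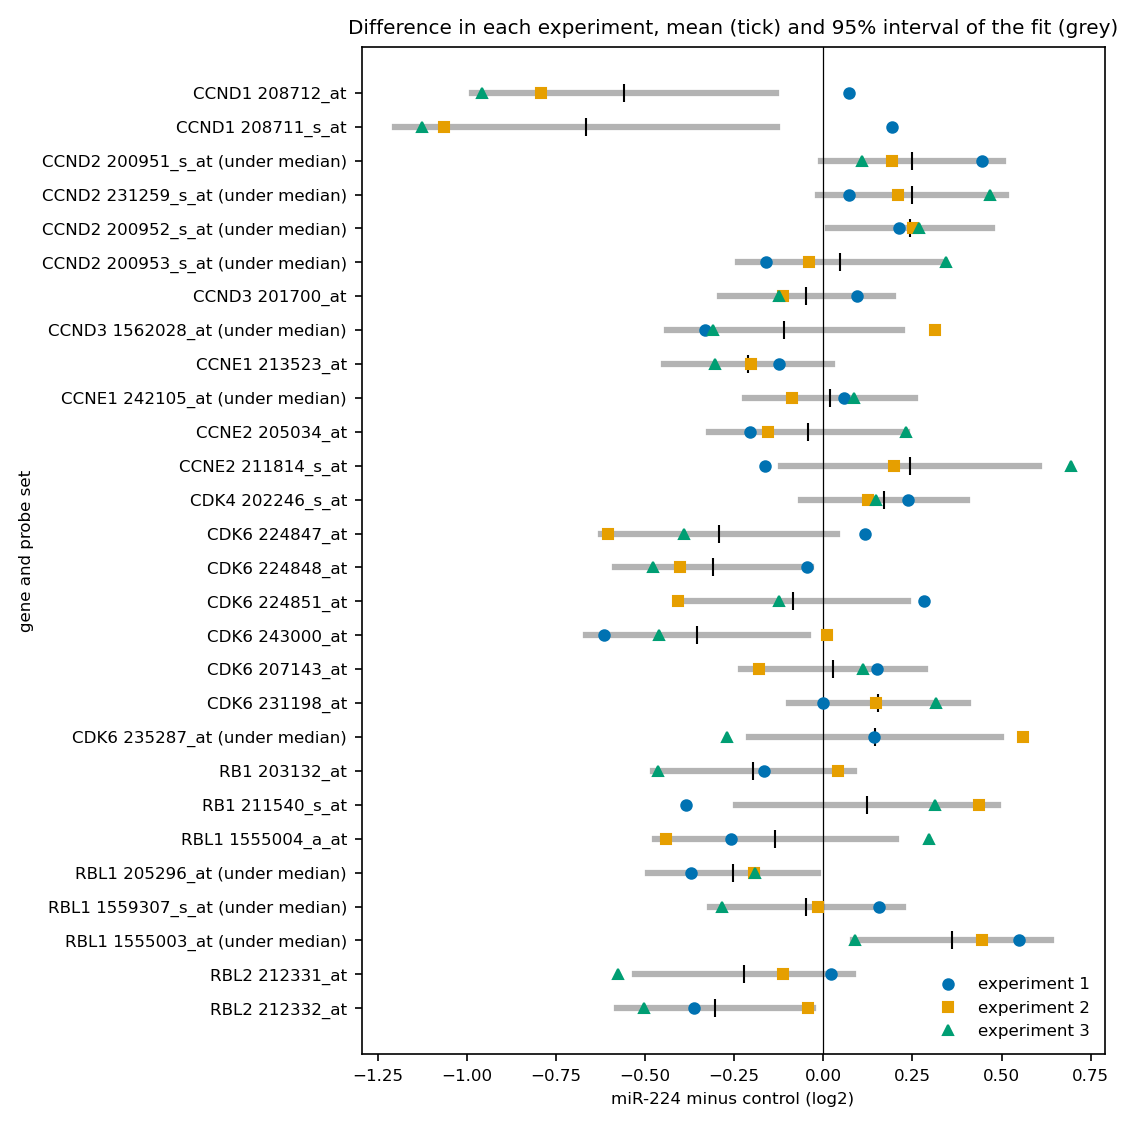
Difference between miR-224 and control (log2, horizontal axis) of all 28 member probe sets in each experiment (coloured points), with the mean of the 3 experiments (tick) and its 95% interval in the limma fit (grey bar). The CCND1 points of experiments 2 and 3 lie from -1.13 to -0.79, left of every other member, and its points of experiment 1 lie at 0.07 and 0.19.

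RB1, the retinoblastoma protein that holds E2F factors in check, also had 2 probe sets whose mean differences were of opposite sign. On 203132_at it read 7.31, 7.46 and 6.09 in the miR-224 arrays of experiments 1, 2 and 3, against 7.48, 7.42 and 6.56 in the control arrays. The miR-224 array of experiment 3 was the lowest, and the mean difference was -0.20 ± 0.12 (SE, limma adjusted p = 0.65). On 211540_s_at it read 3.36, 5.68 and 5.36 in the miR-224 arrays, against 3.75, 5.25 and 5.05 in the control arrays. The differences of -0.38, 0.44 and 0.31 in experiments 1, 2 and 3 gave a mean of 0.12 ± 0.16 (adjusted p = 0.86). On this probe set the effect in experiments 2 and 3 exceeded that in experiment 1 by 0.76 ± 0.23 (adjusted p = 0.65, unadjusted p = 0.0095), the opposite direction to CCND1.

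RBL2 encodes p130, the family member that works with E2F4 in resting cells. On 212331_at it read 6.40, 5.91 and 6.12 in the miR-224 arrays of experiments 1, 2 and 3, against 6.38, 6.02 and 6.70 in the control arrays. The control of experiment 3 was the highest array, and the mean difference was -0.22 ± 0.13 (SE, limma adjusted p = 0.64). On 212332_at it read 2.67, 4.50 and 4.76 in the miR-224 arrays, against 3.04, 4.54 and 5.26 in the control arrays. It was lower in each experiment with a mean of -0.30 ± 0.12 (adjusted p = 0.47). Both RBL2 probe sets were lowest relative to control in experiment 3, at -0.58 and -0.50, and without experiment 3 they stood at -0.05 and -0.20.

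RBL1 encodes p107, and its promoter with the paired E2F motifs is printed above. Its brightest probe set, 1555004_a_at, read 3.24, 3.77 and 3.70 in the miR-224 arrays of experiments 1, 2 and 3, against 3.50, 4.22 and 3.40 in the control arrays. The sign differed between experiments and the mean was -0.13 ± 0.15 (SE, limma adjusted p = 0.83). Of its 3 dimmer probe sets, 205296_at was lower in every experiment (mean -0.25 ± 0.10) and 1555003_at higher in every experiment (0.36 ± 0.12), with adjusted p = 0.49 and 0.41. All 4 lie near the median of all probe sets or under it, so a difference of this size in RBL1 was not resolved here.

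**Figure D3:**
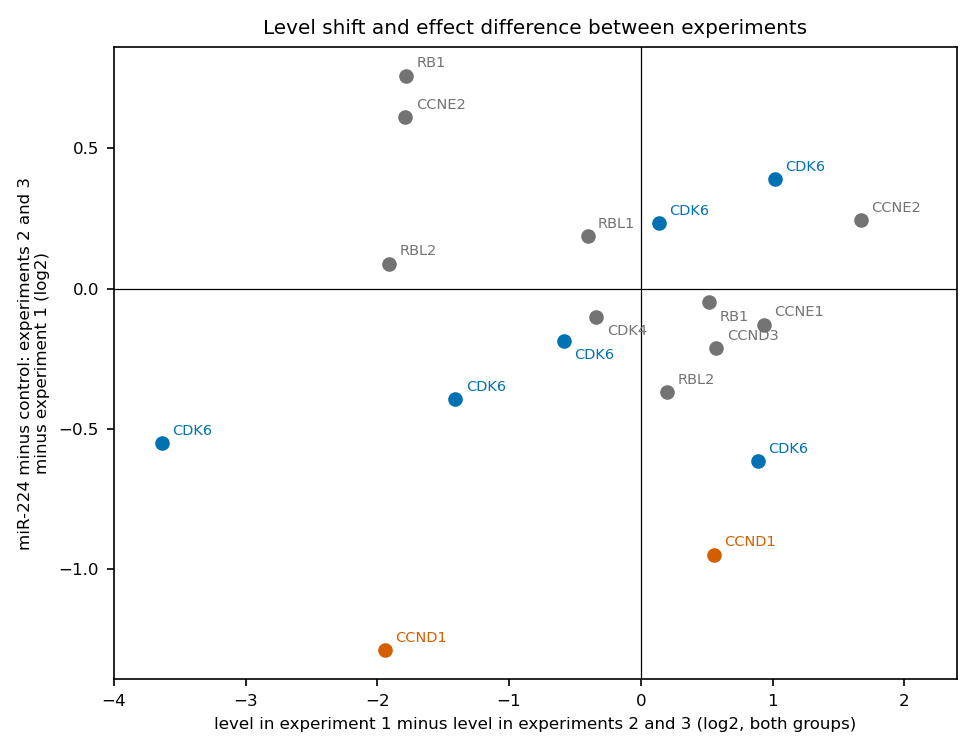
For the 18 member probe sets at or above the median level, the difference between miR-224 and control in experiments 2 and 3 minus that in experiment 1 (log2, vertical axis) against the level in experiment 1 minus that in experiments 2 and 3, averaged over both groups (log2, horizontal axis). Both CCND1 points lie lowest, at -0.95 and -1.29, one where experiment 1 read higher by 0.55 and one where it read lower by 1.94.

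Over all members, 16 of 28 probe sets had a lower and 12 a higher mean in the miR-224 cells, with a median difference of -0.05, against 48.5% lower and a median of 0.005 for all probe sets. Among the 18 at or above the median level, 13 (72.2%) were lower with a median of -0.17, and this median was -0.02, -0.13 and -0.22 in experiments 1, 2 and 3. Of all probe sets at that level 50.5% were lower, with a median of -0.002, and of 0.016, -0.011 and -0.017 in experiments 1, 2 and 3. With limma and experiment as a block 0 of 28 passed, against 0% of all probe sets. At an unadjusted p under 0.05, 6 of 28 (21.4%) were lower and 2 (7.14%) higher, against 5.39% and 4.41% of all probe sets. Of the 18 at or above the median level, 5 (27.8%) were lower and 0 higher by that measure, against 8.29% and 5.67% of all probe sets at that level. With robust variances and an intensity trend 0 of 28 passed as well, against 0.0458% of all probe sets lower and 0.00549% higher. Without the block 0 of 28 passed and 0 had an unadjusted p under 0.05, against 0% and 1.95% of all probe sets. The 6 lower ones come from 4 genes, 2 each from CCND1 and CDK6 and 1 each from RBL1 and RBL2, and probe sets of 1 gene read the same RNA. The groups did not overlap on 0 of 28, against 2.64% of all probe sets with miR-224 lower and 4.02% with it higher. Lower in all 3 experiments were 4 of 28, and higher in all 3 were 5, against 14.8% and 16.5% of all probe sets.

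The effect differed between experiment 1 and the other experiments at an unadjusted p under 0.05 on 5 of 28 member probe sets (17.9%), against 6.57% of all, and 0 passed after adjustment, which holds for 0% of all probe sets. The 5 were both CCND1 probe sets, 224847_at and 224851_at of CDK6, and 211540_s_at of RB1. All 5 lie at or above the median level, where they are 27.8% of the 18 member probe sets, against 8.89% of all. Probe sets of 1 gene read the same RNA, so the 5 are not independent. With robust variances and an intensity trend 0 of 28 passed that test, against 0.0238% of all probe sets.

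By their 6 array values, the genes most like each member were taken from those at or above the median of all genes. Over 6 arrays that share 3 experiments, such correlations mostly follow the experiments. The genes were picked for these correlations, so differences like those of the member follow from the choice. CCND1 was most like NFAT5 (r = 0.991), whose differences in experiments 1, 2 and 3 were 0.03, -0.36 and -0.42, and MLEC (0.990), at 0.03, -0.26 and -0.36. CDK6 was most like TM2D3 (0.997), at 0.10, -0.39 and -0.35, and SMARCC1 (0.996), at 0.03, -0.37 and -0.29. CDK4 was most like EEFSEC (0.995) and LINC00642 (0.994), and CCND3 like RTTN (0.998) and PRPS1 (0.996). CCNE1 paired with ZC3H15 and C5orf22, CCNE2 with DCK and VCPKMT (all at 0.999), RB1 with RBM15 (0.996) and CHMP5 (0.992), and RBL2 with CLYBL and MCCC1 (both 0.980). For the dim genes, CCND2 had 0.982 with AP1G2-AS1 and 0.977 with UVSSA, and RBL1 had 0.958 with both PPP3CA-DT and TMEM181, the lowest of the 10 members.

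Around the members, genes of the same pathway were taken by their brightest probe set, and 0 of 69 measured genes in 8 lists passed (limma, experiment as a block, over 19775 genes), against 0% of all genes. At an unadjusted p under 0.05, 3 of the 69 were lower and 3 higher, against 5.52% and 5.45% of all genes. The median difference was 0.01 for all genes and -0.17 for the 10 members, of which 8 were lower. Among E2F and DP factors, 7 of 10 were lower with a median of -0.03, and the genes with the smallest p were E2F5 (-0.22 ± 0.11 SE) and E2F4, the partner of p130 (0.16 ± 0.11). Among subunits of the MuvB and DREAM complexes, 2 of 6 were lower with a median of 0.03, and the brighter genes with the smallest p were LIN52 (-0.20 ± 0.11) and LIN37 (-0.23 ± 0.14). LIN54, dim and singled out after its values were seen, had the smallest p of the list and stood at 0.41, 0.38 and 0.48 in experiments 1, 2 and 3, a mean of 0.42 ± 0.10 (limma adjusted p = 0.23).

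CDK inhibitors, which bind the kinases or their cyclins, had 2 of 6 measured genes lower and a median of 0.10. CDKN1A, which encodes p21, stood at -0.54, -0.96 and -1.35 in experiments 1, 2 and 3, a mean of -0.95 ± 0.15 (SE, limma adjusted p = 0.14, and 0.0062 with robust variances and an intensity trend). Unlike CCND1 it was lower in experiment 1 too, a contrast between genes that was not tested. CDKN2A, the locus of p16, was higher in each experiment with a mean of 0.22 ± 0.10 (adjusted p = 0.47). Of genes for CDK2 and the kinase that activates CDKs, 2 of 6 were lower, and CCNA2, the cyclin A of S phase, stood at 0.22, 0.17 and 0.61 with a mean of 0.33 ± 0.12 (adjusted p = 0.36). MNAT1, of the activating kinase, differed by -0.09 ± 0.11.

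Genes for turnover of the G1 cyclins were lower in 5 of 10 cases with a median of -0.02. FBXO4, an F-box protein reported to target cyclin D1, stood at -0.16, -0.58 and -0.36 with a mean of -0.37 ± 0.12 (SE, limma adjusted p = 0.31), and FBXW7, which targets cyclin E, at -0.11 ± 0.10. Of chromatin regulators that bind RB1, 2 of 6 were lower, SMARCA4 at -0.16 ± 0.11 and KDM5A at -0.14 ± 0.10. SMARCA2, dim and likewise singled out, had the smallest p of that list, with 0.33, 0.08 and 0.23 and a mean of 0.21 ± 0.11 (adjusted p = 0.51). Of 7 genes that induce cyclin D, 1 was lower, and EGR1, an immediate early factor, stood at -0.19, 1.25 and 0.36 with a mean of 0.47 ± 0.22 (adjusted p = 0.48), while JUN differed by 0.10 ± 0.10. FOS, dim and singled out after its values were seen, rose in the limma fit of experiments 2 and 3 (0.93, adjusted p = 0.022). Of the 69 genes in the 8 lists, 1 was called higher in that fit and 1 lower, against 0.137% and 0.743% of all genes. The lower gene was CDKN1A (-1.16, limma adjusted p = 0.0057).

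Genes that E2F switches on for S phase gave 7 of 18 measured genes lower and 11 higher, with a median of 0.04. The median was 0.02, -0.04 and 0.14 in experiments 1, 2 and 3. CDC6, which loads the replicative helicase, was lower by like amounts in each experiment, at -0.32, -0.23 and -0.26, with a mean of -0.27 ± 0.10 (SE, limma adjusted p = 0.38). MCM3, a subunit of that helicase, was higher by like amounts, at 0.24, 0.18 and 0.23, with a mean of 0.21 ± 0.10 (adjusted p = 0.49).

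**Figure D4:**
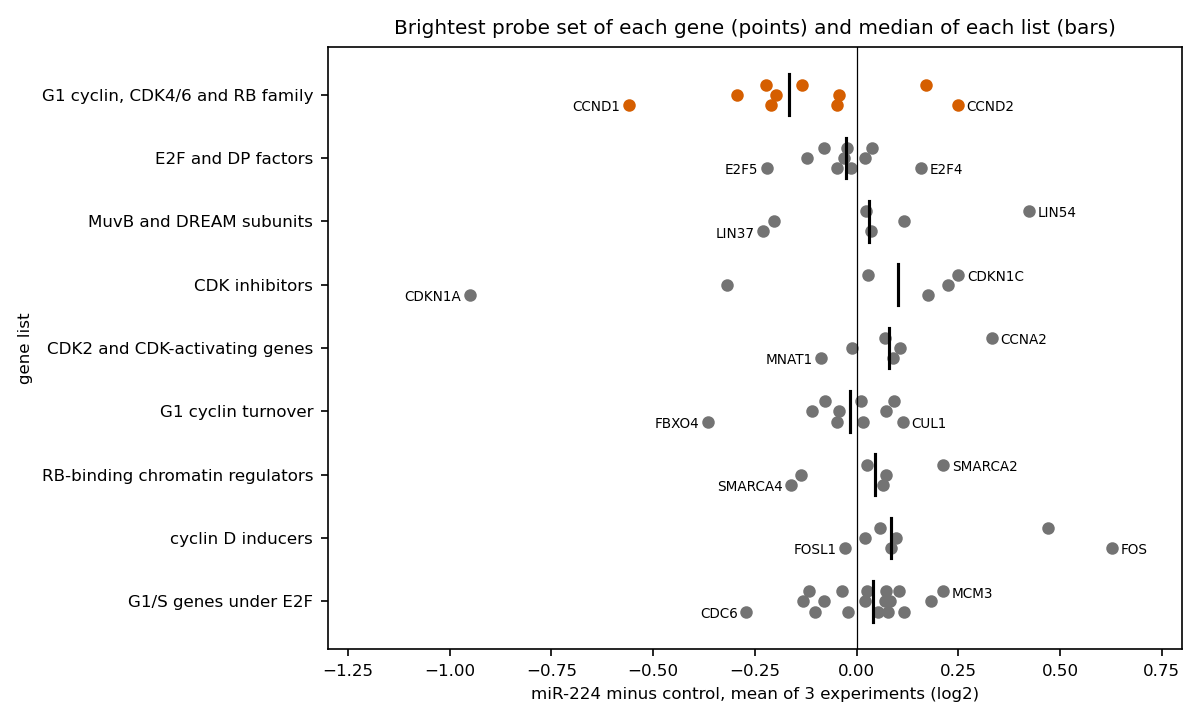
Mean difference between miR-224 and control (log2, horizontal axis) of the brightest probe set of each gene in the G1 cyclin, CDK4/6 and RB family (top, orange) and in 8 related lists (grey), with the median of each list as a bar. CCND1 is the lowest member at -0.56 and CDKN1A the lowest gene of the other lists at -0.95, while the list medians lie between -0.17 and 0.10.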

How the data were processed

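The authors deposited 1 log2 value per probe set and array, made with RMA and Partek per the submitters' processing notes; versions, settings and log base were not found there, so base 2, RMA's usual output, was taken. RMA equalises the arrays' distributions, so a shift shared by most genes cannot be seen. Of 54675 probe sets, 62 controls were left out, and names came from the platform annotation (0 symbols changed by identifier). limma 3.58.1 in R 4.3.3 was fitted over the 54613 others (lmFit, eBayes, two-sided, Benjamini-Hochberg, threshold 0.05), with experiment as a block because the series describes pairs, leaving 2 residual degrees of freedom. Same-numbered arrays deviated from their group means together (r = 0.902, 0.734 and 0.783 for experiments 1, 2 and 3, across probe sets, which are not independent replicates), and arrays of other numbers at -0.777 to 0.474. With 3 pairs an exact sign-flip test cannot go below p = 0.25.

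The members and lists were chosen with earlier results of these data known. Probe sets under the median level (3.48) are given by range and count, though some are singled out. From each other list the genes that passed are named, or else 2 genes at or above the median of all genes with the smallest p. Listed genes with no value of their own were not analysed here. The code was checked on simulated data. Plots used Python 3.11.15 and matplotlib 3.10.9.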

Additional observations from a re-analysis of the deposited data

How the results depend on the processing

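With experiment as a block, 0 of 54613 probe sets and 0 of 28 member probe sets were called by limma, and with no replicate block also 0 and 0, with the same mean differences (16 of 28 lower, median -0.05). At an unadjusted p under 0.05, 1067 probe sets passed without the block, against 2946 lower and 2406 higher with it. Over all probe sets 28 passed with an intensity trend and robust variances and 2 at an adjusted p under 0.1, in each case 0 of them members. Leaving out both arrays of 1 experiment gave 0 to 137 probe sets and 0 to 1 members, the highest without experiment 1, where 208711_s_at of CCND1 passed, with 15 to 18 members lower and a median of -0.05 to -0.03. In fits added after the data were seen, also without experiment 1, the brightest probe set of each gene gave 174 genes and 1 member (7 of 10 lower, median -0.17), and a trend with robust variances gave 535 probe sets and 2 members, both of CCND1. The test of the effect between experiments was likewise added.

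The median of the members was -0.17 both for probe sets at or above the median level and for the brightest of each gene (8 of 10 lower), and 7 of 10 were lower by the mean of each gene's probe sets. Among the 18 brighter probe sets, 11 of 189 comparisons with an alternative changed sign, all of small values. With 1 experiment left out (both of its arrays), CCNE2 205034_at ranged from -0.18 (without experiment 3) to 0.039 (without experiment 1, in the added fits too), CDK6 224851_at from -0.27 (without 1) to 0.078 (without 2), CDK6 207143_at from -0.035 (without 1, in the added fit too) to 0.13 (without 2), RB1 211540_s_at from -0.036 (without 2) to 0.37 (without 1), and RBL1 1555004_a_at from -0.35 (without 3) to 0.019 (without 2). By the mean of its probe sets CCNE2 stood at 0.10. The cause was not tested.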
